A study of Mus musculus with 8 samples.

Results

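The 31 genes described here encode heterogeneous nuclear ribonucleoproteins (hnRNPs) and related RNA-binding proteins of the PCBP, FET, TDP-43 and cold-inducible groups. They were chosen by symbol, from the family they belong to, out of 40840 genes in the count tables of mouse testis RNAseq. All 31 were in the tables and all 31 passed the filter on low counts, with between 926 and 68718 reads in a library. None of the 31 was called higher or lower in *Tra2b-cPEko* testes by edgeR's quasi-likelihood test after adjustment over all 19104 genes tested. *Cirbp* was 13.7% lower and was called by DESeq2, and *Pcbp3* was 17.8% lower without a call. Values did not overlap between genotypes for 1 of 31 genes, *Pcbp3*, a share below the 8.54% of all genes tested.

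hnRNPs coat new transcripts in the nucleus and help to set splice site choice, polyadenylation, export and stability of mRNA. Many of them oppose the SR and SR-like proteins, the splicing factors to which Tra2β belongs, and many limit their own levels through poison exons, which send a transcript to nonsense-mediated decay once spliced in. The testis is known for a large amount of alternative splicing as germ cells enter meiosis.

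The RNA came from whole testes at postnatal day 12 (P12), 4 mice being wild type and 4 *Tra2b-cPEko*, when the most advanced germ cells are early meiotic. Per the study's methods, wild type mice were Tra2bPE fl/+ without Cre, so they too carry 1 floxed allele. *Tra2b-cPEko* mice were fl/- with *Vasa-Cre*, in which the remaining floxed *Tra2b* poison exon is deleted only in germ cells, from the embryo onwards, so Sertoli and other somatic cells keep 1 allele with the exon. All mice were kept on a C57BL/6J background and are described as independent. Mice are named by the letters A to D of the labels. In whole testis, fewer cells of a type and less RNA per cell cannot be told apart.

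The libraries held 36757386 to 59101569 reads on genes. *Tra2b* itself stood at 158, 166, 156 and 175.5 CPM (read counts scaled to a common library total) in wild type A to D, and at 199.7, 190.2, 192 and 209 in *Tra2b-cPEko* A to D. It was thus higher in every *Tra2b-cPEko* mouse, with a log2 fold change of 0.27 ± 0.05 (SE, n = 4 and 4, adjusted p = 0.0552 by edgeR and 0.000195 by DESeq2). Counts per gene do not separate transcripts with and without the poison exon, so the deletion itself was not checked. *Tra2a*, the paralogue, ranged over 111 to 144 CPM across wild type mice and 65.0 to 73.1 CPM across *Tra2b-cPEko* mice (log2 fold change -0.89 ± 0.08, SE, adjusted p = 0.00231 by edgeR). Of the marker lists for testis cells, spermatid markers were near 0 (summed 0.190 to 0.430 CPM, with *Prm2* and *Tnp2* at 0 in every library), while Sertoli markers summed to between 5873 and 6597 CPM. Markers of differentiating spermatogonia (6 of 6 detected) were the only list of 11 whose sums did not overlap. The sums, which weigh abundant genes most, were 495 to 536 CPM across wild type mice and 421 to 490.0 CPM across *Tra2b-cPEko* mice. The median log2 fold change of this list was -0.19, and edgeR and DESeq2 each called 1 of its 6 genes. Other lists had median log2 fold changes as far from 0 with sums that overlapped, among them Leydig cells (0.43, with 358 to 438 CPM against 392 to 626), macrophages (0.29, with 130.5 to 167 CPM against 163.5 to 198) and pachytene spermatocytes (-0.21, with 175 to 359 CPM against 199.7 to 258).

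Together the 31 genes took up 1.07% to 1.12% of the reads on genes across wild type libraries, and 1.065% to 1.11% across *Tra2b-cPEko* libraries. Their CPM summed to 11029 ± 201 (SD, n = 4) in wild type and 10866 ± 206 (SD, n = 4) in *Tra2b-cPEko* mice, a difference smaller than 1 SD. Levels were compared between genes only after division by exon length. *Hnrnpa1* had the highest level, 134 CPM per kb of exon, followed by *Hnrnpa2b1* with 114. Both bind RNA through paired RNA recognition motifs and repress exons. *Pcbp4* (2.63 CPM per kb) and *Pcbp3* (3.94) were the lowest, below *Hnrnpll* (6.28) and *Hnrnpr* (8.45). With the length of the canonical transcript in place of all exons, *Hnrnpa2b1* came first and *Pcbp3* last, and *Hnrnpa1* moved to rank 3 and *Pcbp4* to rank 29. Moves inside the order were larger, such as *Hnrnpa0* from rank 6 to 18 and *Pcbp2* from rank 12 to 4. The order thus depends on the length used.

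**Figure D1:**
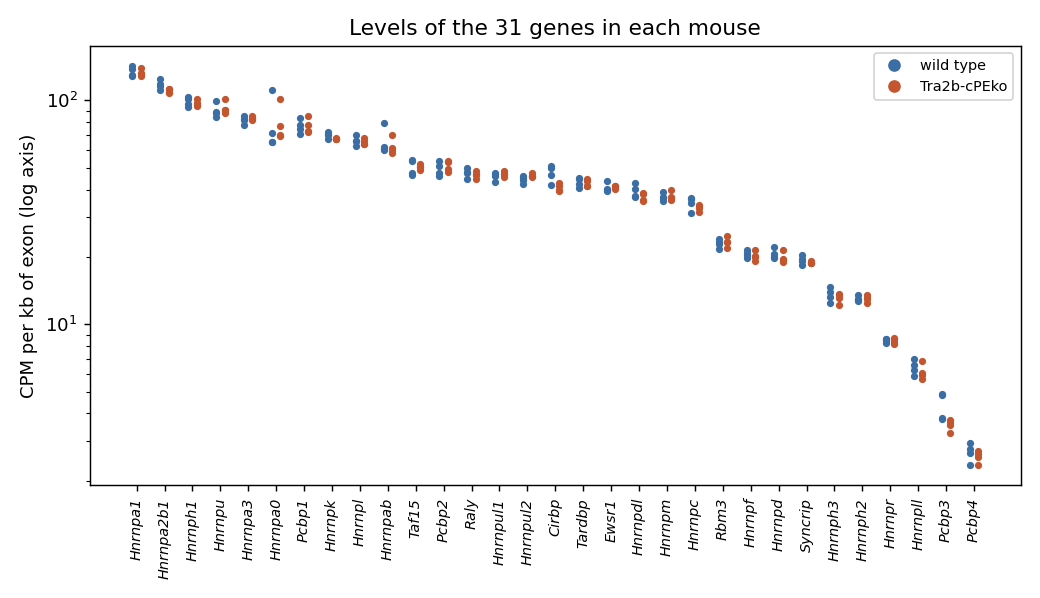
Level of each of the 31 genes in CPM per kb of exon (log axis), ordered by the mean, with 1 point for each mouse (4 of each genotype). Levels run from 2.63 for *Pcbp4* to 134 for *Hnrnpa1*, and points of both genotypes lie over one another for nearly every gene, with *Hnrnpa0* and *Hnrnpab* showing 1 high mouse in each genotype.

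The comparison of genotypes asks whether levels of these genes differ between *Tra2b-cPEko* and wild type testes. Beside the loss of the *Tra2b* poison exon from germ cells, *Tra2b-cPEko* mice carry *Vasa-Cre* and lack 1 poison exon allele in somatic cells. These differences cannot be told apart here. In edgeR, 0 of 31 genes had an adjusted p under 0.05, beside 30 of 19104 genes over the whole table (0.157%). DESeq2 called 1 of 31, *Cirbp*, beside 2.79% of the genes to which it gave an adjusted p, and limma-voom called 0 of 31. At an unadjusted edgeR p under 0.05 there were 2 genes, *Cirbp* and *Pcbp3*, both lower, beside 15.3% of all genes in either direction and 7.07% lower. The median log2 fold change was -0.02 over the 31 genes and -0.00 over all genes tested. A value below 0 was seen for 19 of 31 genes (61.3%) and for 50.3% of all genes. The 95% interval of the log2 fold change lay within 0.2 of 0 for 25 of 31 genes. Taken 1 gene at a time, such an interval bounds the change in whole testis to less than 14.9% up and 12.9% down. It does not bound a change confined to germ cells. Intervals within 0.2 of 0 were also found for 63.1% of the 8203 genes tested at or above the mean CPM of the lowest of the 31. The 6 genes outside these bounds were *Cirbp*, *Pcbp3*, *Hnrnpa0*, *Hnrnpab*, *Pcbp4* and *Hnrnpll*.

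**Figure D2:**
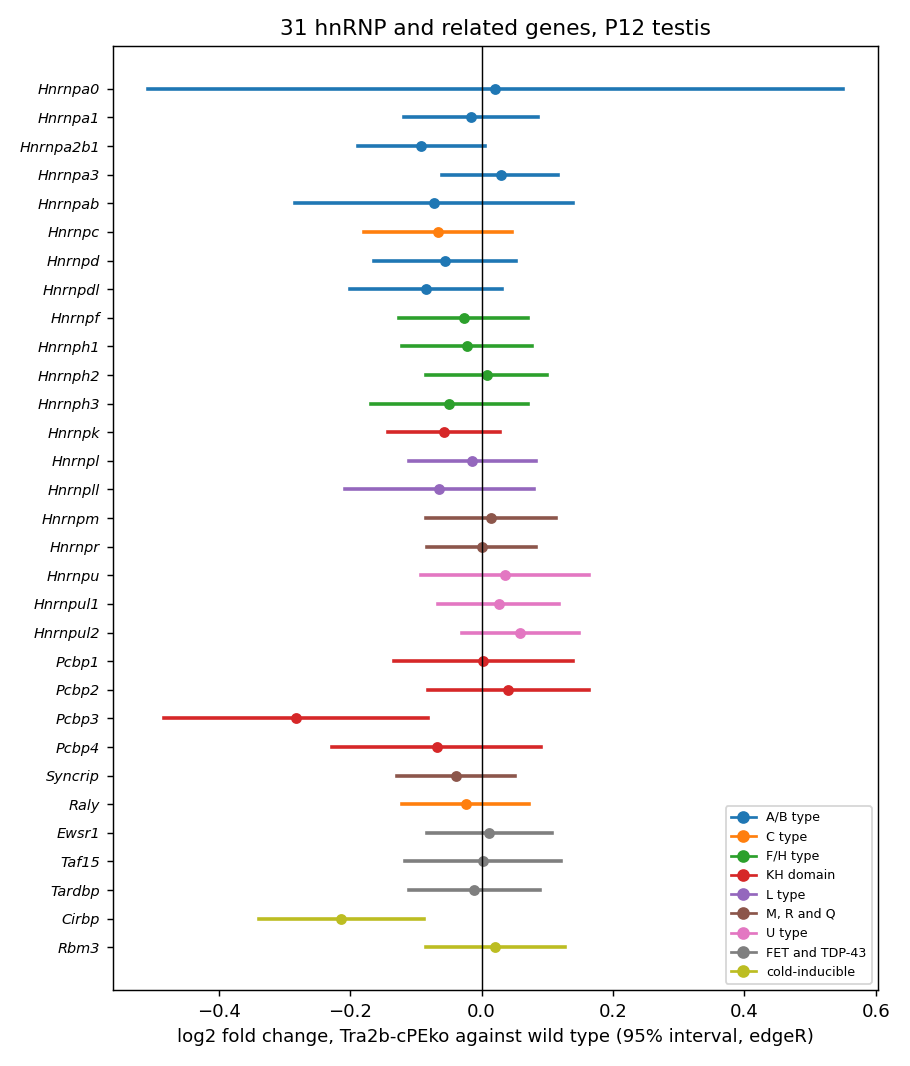
Log2 fold change of *Tra2b-cPEko* against wild type for the 31 genes, with 95% intervals from edgeR, coloured by family (4 mice of each genotype). Intervals of *Cirbp* (-0.34 to -0.09) and *Pcbp3* (-0.48 to -0.08) lie below 0, and the widest interval is that of *Hnrnpa0* (-0.51 to 0.55).

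Among the cold-inducible proteins, *Cirbp* and *Rbm3* encode closely related glycine-rich RNA-binding proteins that bind mRNA and are induced by mild cold. *Cirbp* lies on chromosome 10 between 79997069 and 80008626 on the plus strand of GRCm39, with 7 exons in its canonical transcript. Its annotated extent begins with a few distal starts, and the RefSeq start used here lies downstream of them, so the stretch shown is inside that extent but in none of its exons. The stretch from 250 to 71 bases before this RefSeq start (entry of GRCm38.p6, placed by exact match on GRCm39 at chr10:80003423-80003602, plus strand) is shown because *Cirbp* is the gene called by DESeq2. Capitals mark GGGCGG and CCAAT boxes on either strand.
Cirbp: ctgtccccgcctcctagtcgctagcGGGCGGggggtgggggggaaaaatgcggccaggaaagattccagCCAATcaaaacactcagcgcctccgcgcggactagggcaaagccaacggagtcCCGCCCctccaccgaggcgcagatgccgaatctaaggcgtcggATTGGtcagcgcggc
It holds 2 matches to GGGCGG and 2 to CCAAT, with a GC content of 65.6%. A match to GGGCGG was found in 21.1% of all 32851 stretches of the same length and one to CCAAT in 25.0%, and in 15 and 12 of the 26 genes of the set with an entry. Such a match describes letters and does not show a bound site.

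*Cirbp* was measured at 192, 210.2, 174 and 207 CPM in wild type A to D, and at 176, 163, 165 and 170.5 CPM in *Tra2b-cPEko* A to D. The wild type mice were higher except for mouse C, which fell below *Tra2b-cPEko* mouse A, so the groups overlapped by this 1 pair of mice. The means were 195.6 ± 16.6 and 168.7 ± 5.81 CPM (SD, n = 4 each). The log2 fold change was -0.21 ± 0.06 (SE), with an unadjusted p of 0.00285 and an adjusted p of 0.136 in edgeR. DESeq2 gave an adjusted p of 0.0361, and the exact two-sided permutation test over the 8 mice a p of 0.0571. Over the alternatives the log2 fold change kept between -0.27 and -0.18, with adjusted p between 0.0361 and 0.358. DESeq2 called *Cirbp* in only 1 of 8 fits that left out 1 mouse, the one without wild type mouse C (adjusted p = 7.6e-05), and its adjusted p was up to 0.206 in the other 7. Both *Cirbp* and the sum of the differentiating spermatogonia markers were lower in the *Tra2b-cPEko* group, and the part of these cells, or of those on the other lists, in the level of *Cirbp*, or in that of *Pcbp3*, was not tested.

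*Rbm3*, on the X chromosome, differed less than its spread. It ranged over 169 to 189 CPM across wild type mice and 171 to 194 CPM across *Tra2b-cPEko* mice, with a log2 fold change of 0.02 (95% interval -0.09 to 0.13). The ratio of *Cirbp* to *Rbm3* reads within a library, which does not depend on library size, had a mean log2 of 0.12 ± 0.11 across wild type and -0.11 ± 0.07 across *Tra2b-cPEko* mice (SD, n = 4 each). The difference of -0.23 had an exact two-sided permutation p of 0.0571, where 0.0286 is the smallest this design allows. Wild type mouse C, at -0.04, lay below *Tra2b-cPEko* mouse D, at -0.01.

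**Figure D3:**
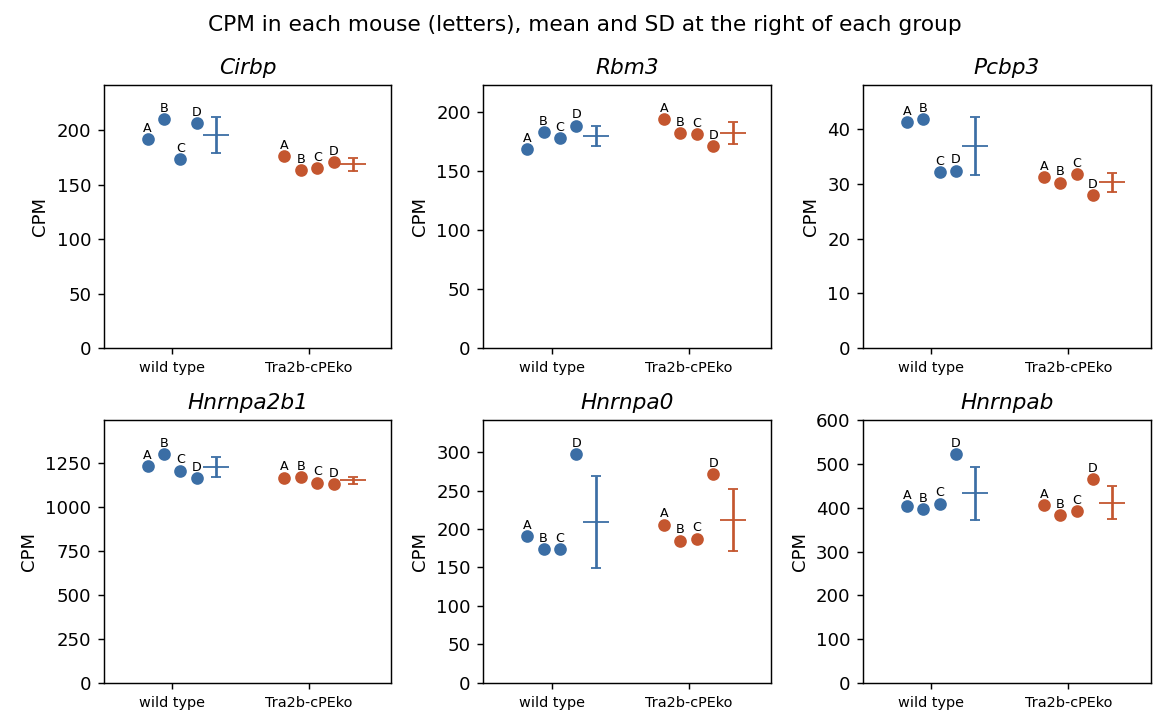
CPM of 6 genes in each mouse (letters A to D; axes start at 0), with the mean and SD at the right of each group of 4. *Cirbp* and *Pcbp3* are lower in *Tra2b-cPEko* mice, *Rbm3* is level, and *Hnrnpa0* and *Hnrnpab* are highest in mouse D of both genotypes.

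The KH domain genes are *Hnrnpk* and the poly(C)-binding proteins *Pcbp1* to *Pcbp4*, which bind runs of C in RNA. *Pcbp3* lies on chromosome 10 between 76593536 and 76797951 on the minus strand of GRCm39. It was measured at 41.2, 41.8, 32.2 and 32.4 CPM in wild type A to D and at 31.2, 30.2, 31.8 and 27.9 CPM in *Tra2b-cPEko* A to D. All 4 *Tra2b-cPEko* mice were below all 4 wild type mice, although wild type C and D sat close to the *Tra2b-cPEko* range and well under A and B. *Pcbp3* was the only gene of 31 without overlap, beside 8.54% of all genes tested. Its log2 fold change was -0.28 ± 0.09 (SE, n = 4 and 4), with an adjusted p of 0.199 in edgeR and 0.0887 in DESeq2. The exact two-sided permutation test gave an unadjusted p of 0.0286, the smallest it can give. Every gene without overlap between 4 and 4 mice has this p, so it adds nothing to the lack of overlap.

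*Pcbp4* had the lowest counts of the set, at 23.4, 27.6, 26.3 and 29.0 CPM in wild type A to D and at 26.2, 25.2, 23.2 and 26.9 in *Tra2b-cPEko* A to D. Its groups overlapped and its log2 fold change was -0.07 ± 0.07 (SE). The log2 ratio of *Pcbp3* to *Pcbp4* ran from 0.16 to 0.82 across wild type and from 0.06 to 0.46 across *Tra2b-cPEko* mice (exact permutation p = 0.257). *Pcbp1*, an intronless gene, and *Pcbp2* had log2 fold changes of 0.00 and 0.04. *Hnrnpk*, which also acts in transcription, was measured at 826, 768, 801 and 804 CPM in wild type A to D and between 766 and 772 CPM in the 4 *Tra2b-cPEko* mice (771, 766, 766 and 772). Wild type B fell inside the narrow *Tra2b-cPEko* range, and the log2 fold change was -0.06 ± 0.04 (SE, adjusted p = 0.510 by edgeR).

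Of the A/B type genes, which encode abundant proteins that bind exonic and intronic silencers, 5 of 7 had values below 0 and none was called. *Hnrnpa2b1* (chromosome 6, 51435248 to 51448049, minus strand), a reader of sorting signals in RNA, had the smallest p of the family. It was measured at 1234, 1301, 1206 and 1164 CPM in wild type A to D and at 1167, 1169, 1138 and 1128 CPM in *Tra2b-cPEko* A to D. Wild type D fell among the *Tra2b-cPEko* mice and the other wild type mice were above them. The log2 fold change was -0.09 ± 0.04 (SE, adjusted p = 0.350 by edgeR and 0.254 by DESeq2). *Hnrnpa1* was measured at 471, 510.0, 525 and 478 CPM in wild type A to D and at 489, 514, 475 and 483 in *Tra2b-cPEko* A to D, with full overlap (log2 fold change -0.02, 95% interval -0.12 to 0.09). *Hnrnpa3* had a log2 fold change of 0.03.

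*Hnrnpd*, known as AUF1 and a regulator of mRNA with AU-rich elements, and its relative *Hnrnpdl* lie next to each other on chromosome 5. *Hnrnpd* was measured at 203, 196, 195 and 218 CPM in wild type A to D and at 191, 193, 187 and 209.7 in *Tra2b-cPEko* A to D. *Hnrnpdl* was measured at 288, 269, 267 and 309 CPM in wild type A to D and at 256, 278, 260 and 275 in *Tra2b-cPEko* A to D. In both genes the groups overlapped and mouse D was the highest of the wild type. The log2 fold changes were -0.06 ± 0.05 for *Hnrnpd* and -0.08 ± 0.05 for *Hnrnpdl* (SE).

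*Hnrnpa0* and *Hnrnpab* set themselves apart by their spread within a genotype. *Hnrnpa0*, an intronless gene on chromosome 13 (58273693 to 58276370, minus strand), encodes a protein that binds AU-rich elements. Its stretch from 250 to 71 bases before the start (chr13:58276441-58276620, minus strand, GRCm39, from the same RefSeq table) is shown for its base composition, with GGGCGG in capitals.
Hnrnpa0: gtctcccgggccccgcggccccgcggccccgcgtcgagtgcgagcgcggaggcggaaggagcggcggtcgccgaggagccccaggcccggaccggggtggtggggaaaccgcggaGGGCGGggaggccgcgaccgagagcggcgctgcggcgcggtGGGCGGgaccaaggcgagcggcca
Its GC content is 82.2%, against 65.6% for *Cirbp*. The median was 51.1% over all entries and about 64% over the 26 genes of the set with an entry. The stretch holds 2 matches to GGGCGG and none to CCAAT. In the canonical transcript the GC content is 55.4% for *Hnrnpa0* and 52.1% for *Hnrnpab*. The median there was 49.6% over the 31 genes and 50.2% over tested genes with an annotation.

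*Hnrnpa0* was measured at 191, 174, 174 and 297.5 CPM in wild type A to D and at 206, 185, 187 and 271 CPM in *Tra2b-cPEko* A to D. Mouse D was the highest of each genotype by a wide margin and the other 3 mice of both genotypes overlapped. The log2 fold change was 0.02 with a 95% interval of -0.51 to 0.55, the widest of the 31. *Hnrnpab*, which also binds AU-rich sequence, was measured at 403, 397, 409.6 and 523 CPM in wild type A to D and at 406, 384, 392 and 466 CPM in *Tra2b-cPEko* A to D, again with mouse D highest in each. Without both libraries D, an alternative chosen after these values were seen, the log2 fold change was 0.10 ± 0.06 for *Hnrnpa0* and -0.03 ± 0.05 for *Hnrnpab* (SE, n = 3 and 3), and 0 of 31 genes were called.

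Among the 31 genes, 12 (38.7%) had their highest value in mouse D of both genotypes, beside 9.16% of all genes tested. They were *Hnrnpa0*, *Hnrnpab*, *Hnrnpd*, *Hnrnpf*, *Hnrnpl*, *Hnrnpll*, *Hnrnpu*, *Hnrnpul1*, *Hnrnpul2*, *Pcbp1*, *Pcbp4* and *Raly*. For the other 15 combinations of a wild type and a *Tra2b-cPEko* letter the count of the 31 was at most 4. Of 7450 genes with a mean log2 CPM over 5, 8 stood more than 0.3 above their genotype mean (log2) in both libraries D, namely *Fdx1*, *Hnrnpa0*, *Jund*, *Nr2f6*, *Pcsk1n*, *Shisa8*, *Sox3* and *Trir*, and at most 3 did so in any other combination. More than 0.3 below the mean in both libraries were 0 genes for the combination of both D and up to 6 for others, the 6 being in wild type C and *Tra2b-cPEko* B. The transcripts of the 8 genes above the mean in both libraries D had a median GC content of 63.05% and a median length of 2138 bases. For all genes looked at, these were 49.9% and 3915 bases. Across the 12 genes of the set highest in both mice D, GC content of the canonical transcript ran from 40.9% for *Hnrnpu* to 63.1% for *Pcbp4*. Libraries D also had the highest share of unaligned reads, 1.46% and 1.48% against 0.916% to 1.17% in the other 6. These limits of 0.3 and 5 were set after the values were seen, and the part of GC content or read quality in the levels was not tested.

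**Figure D4:**
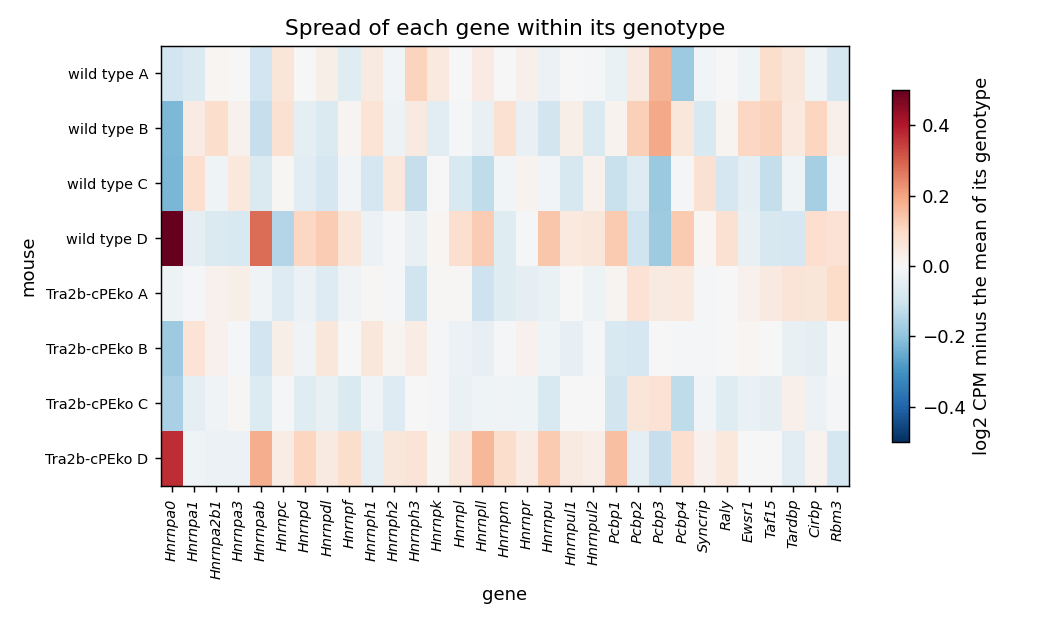
Log2 CPM of each of the 31 genes in each of 8 mice minus the mean of its genotype (colour, from -0.5 to 0.5). The rows of mouse D in both genotypes are red for *Hnrnpa0* and *Hnrnpab*, while the median within-genotype SD over the 31 genes was 0.0630 on the log2 scale.

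The C type gene *Hnrnpc* encodes the protein that binds U-tracts and guards against inclusion of cryptic exons. It was measured at 349, 353, 336 and 303 CPM in wild type A to D and at 306, 326.5, 319 and 329 CPM in *Tra2b-cPEko* A to D. Wild type D was the lowest of all 8 and the other wild type mice were the highest, so the groups overlapped (log2 fold change -0.07 ± 0.05, SE, adjusted p = 0.568 by edgeR). Its relative *Raly* had a log2 fold change of -0.02.

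The U type genes encode large nuclear proteins with SAP domains, of which *Hnrnpu* (scaffold attachment factor A) binds chromatin and RNA. *Hnrnpul2* had the largest positive value of the set. It was measured at 334, 319, 340 and 348 CPM in wild type A to D and at 343, 346, 349 and 358 CPM in *Tra2b-cPEko* A to D. The *Tra2b-cPEko* mice were on the upper side, yet wild type D lay above 2 of them, and the log2 fold change was 0.06 ± 0.04 (SE, adjusted p = 0.513 by edgeR). *Hnrnpu* and *Hnrnpul1* were at 0.04 and 0.03, so all 3 of the family had values above 0 with intervals that include 0, and *Hnrnpu* and *Hnrnpul1* had a value below 0 in 1 alternative each.

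The remaining families showed values close to 0. The F/H type genes bind G-runs, and *Hnrnpf*, *Hnrnph1*, *Hnrnph2* and *Hnrnph3* had log2 fold changes between -0.05 and 0.01. *Hnrnpl* and *Hnrnpll*, which bind CA repeats, were at -0.01 and -0.06. *Hnrnpm*, *Hnrnpr* and *Syncrip* (hnRNP Q) lay between -0.04 and 0.02. *Ewsr1* and *Taf15* of the FET family, which couple transcription to splicing, were at 0.01 and 0.00, and *Tardbp*, which encodes TDP-43 and represses cryptic exons, was at -0.01. The 95% intervals of these 12 genes lay within 0.2 of 0, except that of *Hnrnpll* (-0.21 to 0.08).

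Ratios of 11 pairs of related genes were compared within each library, and none of the 11 was free of overlap between genotypes. Unadjusted exact permutation p-values ran from 0.0571 for *Cirbp* over *Rbm3* to 0.886 for *Ewsr1* over *Taf15*. *Hnrnpa1* over *Hnrnpa2b1* had the next smallest p, 0.171, with a mean log2 ratio of -1.31 ± 0.08 across wild type and -1.23 ± 0.03 across *Tra2b-cPEko* mice (SD, n = 4 each). The most unequal pair in reads was *Hnrnph1* over *Hnrnph2*, at 9.55 times in wild type and 9.36 times in *Tra2b-cPEko* mice.

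**Figure D5:**
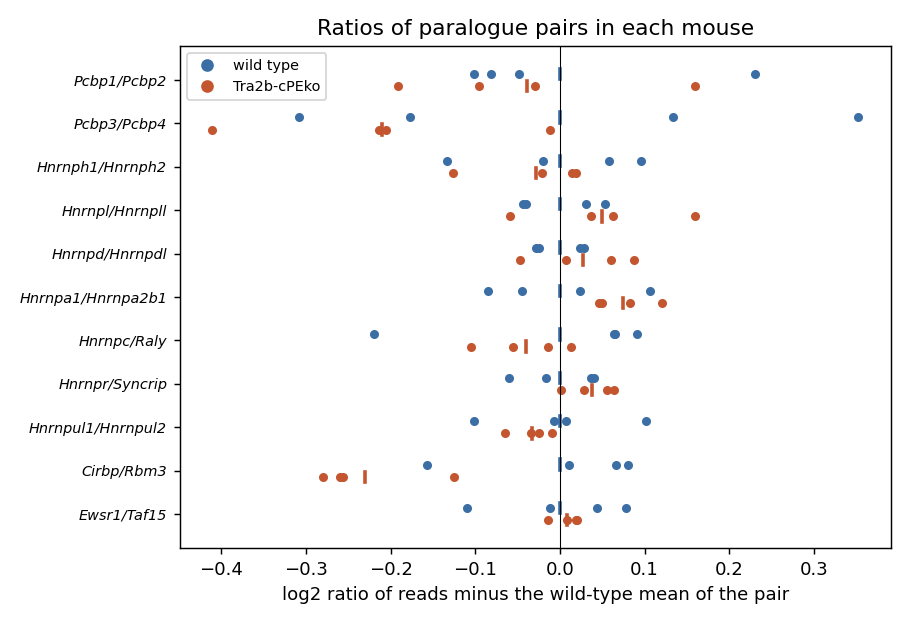
Log2 ratio of reads for 11 pairs of related genes in each mouse, minus the wild type mean of the pair (1 point for each of 4 mice of each genotype, bars at the means). *Cirbp* over *Rbm3* differs by -0.23 and *Pcbp3* over *Pcbp4* by -0.21, and points of both genotypes overlap for each pair.

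Sequence features that the choice of genes did not use were read from GENCODE vM39. The word AGAA, part of the purine-rich sequence to which Tra2β binds, occurred at a median of 5.99 per kb of canonical transcript in the 31 genes and 7.12 per kb in 17369 tested genes with an annotation. The densest were *Hnrnpu* (10.6 per kb), *Syncrip* (9.70), *Hnrnpr* (9.64) and *Hnrnpul2* (9.16), whose log2 fold changes lay between -0.04 and 0.06. The canonical transcript of *Cirbp*, 1321 bases, held none. A transcript annotated as subject to nonsense-mediated decay was listed for 24 of 31 genes (77.4%) and for 60.9% of tested genes, and the 31 genes also had more transcripts listed, a median of 30 against 12. *Pcbp3* and *Rbm3* had the most decay transcripts, 40 each, and *Cirbp* had 7. Counts per gene do not show how often these forms were used.

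Near-identical copies and overlapping genes limit these values. A search for near-identical transcripts matched 28 annotated genes to *Hnrnpa3*, 9 to *Hnrnpa1* and 8 to *Hnrnpf*. Only 8 of the 62 matches of all 31 genes were found in the tables by their GENCODE symbol. A match listed there under another name would be missed. Reads assigned to those 8 were at most 0.588% of those of the gene itself. The matches include genes whose exons overlap the gene itself, such as *Masp2* for *Tardbp* and *Gm43863* for *Hnrnpf*. Such matches share its place in the genome and are not copies elsewhere. Reads that aligned to more than 1 place, 14.6% to 15.6% of each library, were not counted, so the reads lost to copies are not measured. Exons of other genes overlap 24 of 31 genes on the opposite strand, *Cirbp*, *Pcbp3* and *Hnrnpa2b1* included, and 6 on the same strand (*Hnrnpa3*, *Hnrnpm*, *Hnrnpul2*, *Pcbp2*, *Syncrip* and *Raly*), and whether counting used the strand is not given in the sources used here.

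Other RNA-binding proteins were looked at as a list of 24 genes, of which 23 were tested. edgeR called 0 of 23, beside 0.157% of all genes tested. At an unadjusted edgeR p under 0.05, 4 of 23 were lower, beside 7.07% of all genes. DESeq2 called 2, both lower, beside 2.79% of the genes to which it gave an adjusted p in either direction. *Igf2bp3*, a fetal mRNA-binding protein, was at 25.45 ± 1.30 CPM in wild type and 21.7 ± 0.353 CPM in *Tra2b-cPEko* mice (SD, n = 4 each), a log2 fold change of -0.23 ± 0.06 (SE, adjusted p = 0.112 by edgeR and 0.0135 by DESeq2). *Elavl1*, which encodes the mRNA-stabilising protein HuR, had a log2 fold change of -0.18 ± 0.05 (SE, adjusted p = 0.144 by edgeR and 0.0486 by DESeq2). *Tial1* and *Ilf2* had log2 fold changes of -0.16 and -0.09. Of 4 import receptors and arginine methyltransferases, which carry hnRNPs to the nucleus or modify their glycine-rich tails, edgeR and DESeq2 called 0. *Prmt1* had an unadjusted p of 0.0245 and a log2 fold change of -0.10 ± 0.04 (SE).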

How the data were processed

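RNAseq covered whole P12 testes of 8 mice, 4 per genotype. The authors deposited raw read counts per gene, 1 table per mouse, with 40840 genes and 5 summary lines of the kind HTSeq writes, which were left out. The submitters' processing notes name HISAT2 2.2.1, SAMtools 1.7.1, HTSeq 2.0.2 and deepTools 3.5.1 with mm39, the methods also Salmon, and the strand setting is not given in the sources used here.

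Differences between genotypes were fitted with edgeR 4.0.16 under R 4.3.3, on genes that passed filterByExpr (least count 10 and least total 15), with TMM factors and the robust quasi-likelihood F-test, and no covariate beside genotype. A gene is called when its p, adjusted by Benjamini-Hochberg over all 19104 tested, is under 0.05. CPM values are scaled with the TMM factors, and values across mice were compared with a two-sided exact permutation test of log2 CPM (prior count 2) or of log2 ratios (1 read added) over 70 arrangements. Alternatives were limma-voom (limma 3.58.1), DESeq2 1.42.0, upper-quartile or RLE factors, non-robust estimation, no filter, a minimum mean count of 50, a threshold of 0.1, a term for the replicate letter, each mouse left out and, for ratios, 10 reads added. The fit without both libraries D, and DESeq2 leaving out single mice, were chosen after seeing the data. Gene models and coordinates are GENCODE vM39 on GRCm39, and 26 of 31 genes matched the RefSeq promoter table. Copies were looked for with BLAST 2.17.0 (95% identity or more over at least 50% of the shorter transcript), without leaving out genes at the same place.

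The 31 genes and all lists were chosen with earlier results of these data known. Values in every mouse are given for genes called by edgeR or DESeq2, those without overlap, the 8 with the smallest p, and the 2 highest and 2 lowest per kb of exon. Of the related genes, those with an unadjusted p under 0.05 are named, and the result of 1 gene is not reported here. *Rbm3*, *Hnrnpa0* and *Hnrnpab* were added after their values were seen. Libraries of a genotype differed by 6.24 to 19.1 times counting noise, so none was a copy of another. With 36757386 to 59101569 reads on genes, the libraries gave a median SE of 0.05 (log2) for the 31 genes.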

Additional observations from a re-analysis of the deposited data

Results flagged for a closer look

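Single mice that stood apart from the other 3 of their genotype were looked for in 88 groups of 4 values (31 genes, *Tra2b*, *Tra2a* and 11 ratios in each genotype), by Dixon's ratio of the gap to the nearest mouse over the whole range. Chance alone passes about 1 in 20 groups, or 4.4 here, and 6 passed.

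In wild type mouse D, *Hnrnpa0* stood at 297.5 CPM and *Hnrnpab* at 523 CPM, above the other 3 wild type mice, and in the same mouse the log2 ratio of *Pcbp1* to *Pcbp2* was -1.14 and that of *Hnrnpc* to *Raly* 0.15. In *Tra2b-cPEko* mouse D the log2 ratio of *Cirbp* to *Rbm3* was -0.006, above the other 3 mice of its genotype. In wild type mouse B, *Ewsr1* stood at 553.5 CPM, above the other 3. Of the 6, 5 were in libraries D.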

How the results depend on the processing

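The number of genes called over the whole table, 30 in edgeR, was 507 with DESeq2, 58 with upper-quartile factors, 123 without the filter, 14 at a mean count of at least 50, 11 with limma-voom, 12 without robust estimation, 156 at a threshold of 0.1, 2 without both libraries D, and from 3 to 84 when 1 mouse was left out. Of the 31 genes, 0 were called in edgeR and 1 with DESeq2, with 0 to 1 when 1 mouse was left out, *Cirbp* in each case. It was called by edgeR without wild type mouse C (log2 fold change -0.27, adjusted p = 0.0382). Of the related genes, 0 were called in edgeR and 2 with DESeq2. The number of the 31 without overlap, 1, ran from 1 to 4 when 1 mouse was left out (4 without wild type B or D), and the number of ratios without overlap, 0, from 0 to 3 (3 without wild type C).

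Over 17 other settings none of the 31 genes reversed a value beyond 2 SE of 0. The sign of a value with no call differed from the main one somewhere for 15 genes, with sizes up to 0.12, that of *Hnrnpa0*. The median over the 31 genes ran from -0.04 to 0.00. The 110 alternative values of the ratios moved by less than 1 SD.

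With the replicate letter as a block, 67 genes were called over the whole table and 0 of the 31, and the adjusted p of *Cirbp* was 0.128 and that of *Pcbp3* 0.137. *Tra2b*, not called without the block, was called with it (adjusted p = 0.0452 by edgeR). The SE of *Hnrnpa0* was 0.053 with the block and 0.221 without it, and that of *Hnrnpab* 0.047 and 0.095. For other genes it was larger with the block, among them *Rbm3* (0.056 and 0.049). Libraries of the same letter deviated together only weakly (correlations 0.03, -0.14, -0.04 and 0.12 for A to D), and only D correlated best with its own letter. The labels do not say whether the letters pair the mice, and these correlations cannot decide it.

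Leaving out 1 mouse or both libraries D lowers the number of samples, and the mean count limit and the omitted filter change the genes tested. For the other settings the cause was not tested. With 4 mice a genotype and these depths, a change too small for its 95% interval to leave out 0 was not detectable. A call after adjustment over all genes needed more than that. The intervals of *Cirbp* (-0.34 to -0.09) and *Pcbp3* (-0.48 to -0.08) left out 0, and edgeR called neither.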
